A study of Homo sapiens with 18 samples.

Results

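The genes described here desaturate fatty acids or build, remodel and store glycerolipids. They are 9 genes, SCD, SCD5, FADS1, FADS2, PNPLA3, LPIN1, LPCAT3, PLIN5 and PLA2G3, out of 3647 genes that appear in at least 1 of 3 deposited tables of expression changes. They were chosen by name for appearing in these tables, so every difference from DMSO below is a description of how they were chosen and has no test. Of the 9, 6 appeared in 1 table and 3 in 2 tables, and no gene of the set appeared in all 3.

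RNA was sequenced from Cal51, an established human breast cancer cell line, in 12 libraries of cells treated for 8 h, with 3 libraries per group. The groups were fenofibrate plus ezetimibe (here the combination), ezetimibe alone, fenofibrate alone and DMSO, the solvent control. Ezetimibe blocks sterol uptake through NPC1L1, and fenofibrate is a fibrate, a class of drugs that act on PPARα. The labels give no dose. They do not tell whether replicates came from separate cultures, so p-values below measure only the spread between these libraries, which may be technical. Another 6 libraries of the series, from PKM2 KO cells and their control cells, are not analysed here.

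Each table holds 1 treated group beside the 3 DMSO libraries, which all tables share. It is limited to genes called by the authors, all with log2 fold changes beyond 1 in either direction and adjusted p below 0.05. A gene missing from a table may have changed less, changed with too much spread or been too low to test, and is called "not listed". Values are read counts divided by a factor for each library, here called normalised read counts. These factors ran from 0.896 to 1.12, so a value is close to the number of reads behind it. The genes of a table held 40113 to 108822 reads per library with fenofibrate, 185127 to 339263 with ezetimibe and 2550718 to 3265200 with the combination, and the full depth of the libraries is unknown. Of 28 markers of breast epithelial, mesenchymal, basal and other cells, 0 were listed with fenofibrate, 2 with ezetimibe and 6 with the combination, so the label of the cell line could not be checked for the rest. The stromal genes COL1A1 (262 ± 15.2 with the combination and 1021 ± 158 with DMSO, SD, n = 3 each) and PDGFRB (381 ± 34.1 with the combination and 1092 ± 43.7 with DMSO) were lower, as was the epithelial ERBB2 (1224 ± 73.3 with the combination and 2951 ± 285 with DMSO). The keratins KRT17 (269 ± 44.4 with the combination and 38.6 ± 4.13 with DMSO) and KRT7 (38.7 ± 9.22 with the combination and 3.82 ± 2.40 with DMSO) and the luminal factor GATA3 (104 ± 10.5 with the combination and 25.1 ± 9.18 with DMSO) were higher. With ezetimibe GATA3 was higher and the endothelial CDH5 lower. The part of these markers in the changes below was not tested. In bulk RNA, fewer cells of a kind and less RNA per cell cannot be told apart.

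Cells take up or make saturated fatty acids and then desaturate them. SCD and SCD5 make monounsaturated fatty acids, whereas FADS2 and FADS1 act in turn on the essential fatty acids to give long polyunsaturated ones such as arachidonic acid. The products are esterified to glycerol as phosphatidic acid, which lipins such as LPIN1 convert to diacylglycerol, the precursor of both triglycerides and phospholipids. LPCAT3 puts polyunsaturated chains into membrane phospholipids, secreted phospholipases A2 such as PLA2G3 release them again, and PNPLA3 and PLIN5 sit on lipid droplets. In many cells these genes respond to the sterol-regulated factors SREBP and to the oxysterol receptor LXR.

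The promoter sequences of the 4 desaturase members are shown because 3 of these genes were higher with fenofibrate and the other was lower with the combination. Each window runs from 250 bases before to 50 bases after a RefSeq start (GRCh38.p14) on the strand of the gene. Capitals mark the letters CCAAT or, on the other strand, ATTGG, the box bound by the factor NF-Y. Windows of RefSeq were found for 7 of the 9 genes. For FADS2 the second of its 2 windows is printed, which lies 500 bases from that of FADS1.
SCD (chr10:100346983-100347282, plus strand): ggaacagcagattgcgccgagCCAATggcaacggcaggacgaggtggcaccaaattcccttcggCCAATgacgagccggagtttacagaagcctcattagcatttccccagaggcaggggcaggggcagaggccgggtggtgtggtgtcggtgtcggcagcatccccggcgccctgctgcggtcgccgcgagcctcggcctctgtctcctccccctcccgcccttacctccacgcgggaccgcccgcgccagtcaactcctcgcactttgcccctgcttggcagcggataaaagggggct
FADS2 (chr11:61816154-61816453, plus strand): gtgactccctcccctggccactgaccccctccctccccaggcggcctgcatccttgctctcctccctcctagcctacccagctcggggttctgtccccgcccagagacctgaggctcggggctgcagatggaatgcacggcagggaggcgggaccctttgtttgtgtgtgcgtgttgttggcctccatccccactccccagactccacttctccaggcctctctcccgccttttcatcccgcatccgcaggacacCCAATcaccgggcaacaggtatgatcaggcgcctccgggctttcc
FADS1 (chr11:61816954-61817253, minus strand): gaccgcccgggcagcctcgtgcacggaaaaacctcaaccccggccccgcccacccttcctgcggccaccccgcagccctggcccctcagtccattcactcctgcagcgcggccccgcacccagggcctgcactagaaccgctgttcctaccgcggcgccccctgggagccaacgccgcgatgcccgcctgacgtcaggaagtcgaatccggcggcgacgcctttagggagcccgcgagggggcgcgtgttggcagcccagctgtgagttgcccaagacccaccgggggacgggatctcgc
SCD5 (chr4:82798747-82799046, minus strand): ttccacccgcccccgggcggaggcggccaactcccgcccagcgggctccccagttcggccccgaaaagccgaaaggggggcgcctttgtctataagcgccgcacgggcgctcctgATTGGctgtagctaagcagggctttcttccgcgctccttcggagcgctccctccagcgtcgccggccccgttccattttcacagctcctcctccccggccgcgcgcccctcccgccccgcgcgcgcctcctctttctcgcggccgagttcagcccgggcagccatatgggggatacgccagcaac

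A set of 6 motifs was searched on both strands of the 10 windows of the 7 genes, and only the CCAAT box was found. The SCD window held 2 of them, at positions -229 and -186 from the start, and 34.6% of all 35116 windows hold it. Matches were also found for SCD5, FADS2, LPCAT3 and PLIN5, and LPCAT3 had 3 of them. The letters TCANNCCAC of a sterol regulatory element, which 3.82% of all windows hold, were not in the 10 windows. Nor were CACGTG (7.26% of all windows), TGATGNAA (3.62%), the nuclear receptor repeats known as DR4 (0.0199%) and DR1 (0.0228%). A missing match says only that these letters are not in these short windows.

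With fenofibrate alone 5 of the 9 members were listed, all higher than with DMSO. The number depends on the threshold. As deposited, the authors' tables held 4 members with the combination, 3 with ezetimibe and 5 with fenofibrate. Beyond an absolute log2 fold change of 1.5 these numbers were 3, 2 and 1. The margins were narrow: LPIN1 with the combination (1.503) and PLIN5 with ezetimibe (1.505) just passed. FADS2 (1.495) and PNPLA3 (1.471) with fenofibrate just missed, so little is read from the changed order. The 5 members listed with fenofibrate were the 3 desaturases SCD, FADS2 and FADS1 at high levels, PNPLA3 at a moderate and PLA2G3 at a low level. Of all 12215 genes tested (a number inferred from the p-values), the authors' deposited table listed 0.761% as higher with fenofibrate. The members were picked from this same contrast, so nothing is read from the difference between these shares.

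SCD, the main enzyme that makes oleic acid (chromosome 10, 100347124 to 100364834, plus strand), had 22263, 20469 and 21757 normalised reads in the 3 fenofibrate libraries, against 8342, 7862 and 8991 in the DMSO libraries. Every fenofibrate library lay above every DMSO library. The ratio of the means was 2.56 (log2 1.36 ± 0.07, SE from limma, n = 3 each). SCD was not listed with ezetimibe or with the combination.

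FADS2, which carries out the entry step of polyunsaturated fatty acid synthesis (chromosome 11, 61792980 to 61867354, plus strand), had 2754, 2834 and 2764 reads with fenofibrate, against 974, 1022 and 968 with DMSO. The libraries within each group were close together, and the groups were far apart. The ratio was 2.82 (log2 1.49 ± 0.07). FADS1, which acts after FADS2 (chromosome 11, 61799625 to 61829318, minus strand), had 4453, 3974 and 4385 reads with fenofibrate, against 1995, 2058 and 2045 with DMSO. Its groups did not overlap either, and the ratio was 2.10 (log2 1.07 ± 0.07), close to the listing threshold. Neither gene was listed with ezetimibe or with the combination. Their exons share 490 bases on opposite strands, which is 4.44% of FADS2 and 4.79% of FADS1. The sources used here do not tell whether reads were counted by strand, so reads in that stretch may belong to either gene.

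The ratios between the desaturases were also compared, as a description with no test. Within each library the level of FADS2 per kb, divided by that of FADS1, was 0.574, 0.662 and 0.585 with fenofibrate, against 0.453, 0.460 and 0.439 with DMSO, so all 3 fenofibrate ratios were higher. Such a ratio does not depend on how the libraries were scaled. The ratio of SCD to FADS1 per kb was 9.54, 9.83 and 9.47 with fenofibrate, against 7.98, 7.29 and 8.39 with DMSO, again with no overlap. The ratio of SCD to FADS2 per kb was 15.9 ± 0.924 with fenofibrate and 17.5 ± 1.64 with DMSO, and there the libraries of the 2 groups overlapped.

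SCD5, a relative of SCD found in primates and other vertebrates but not in mice (chromosome 4, 82629539 to 82798857, minus strand), was listed only in the combination table, on the lower side. It had 368, 416 and 419 reads with the combination, against 1238, 1265 and 1157 with DMSO. Its log2 fold change was -1.60 ± 0.11, and no library of one group reached the other. The combination table listed 4 of the 9 members, 2 higher and 2 lower, beside 10.3% of all 19944 genes tested listed as higher and 7.27% as lower (the rule used this contrast too). SCD and SCD5 catalyse the same reaction but were not listed in the same table, and no table gives both genes with 1 treatment.

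**Figure D1:**
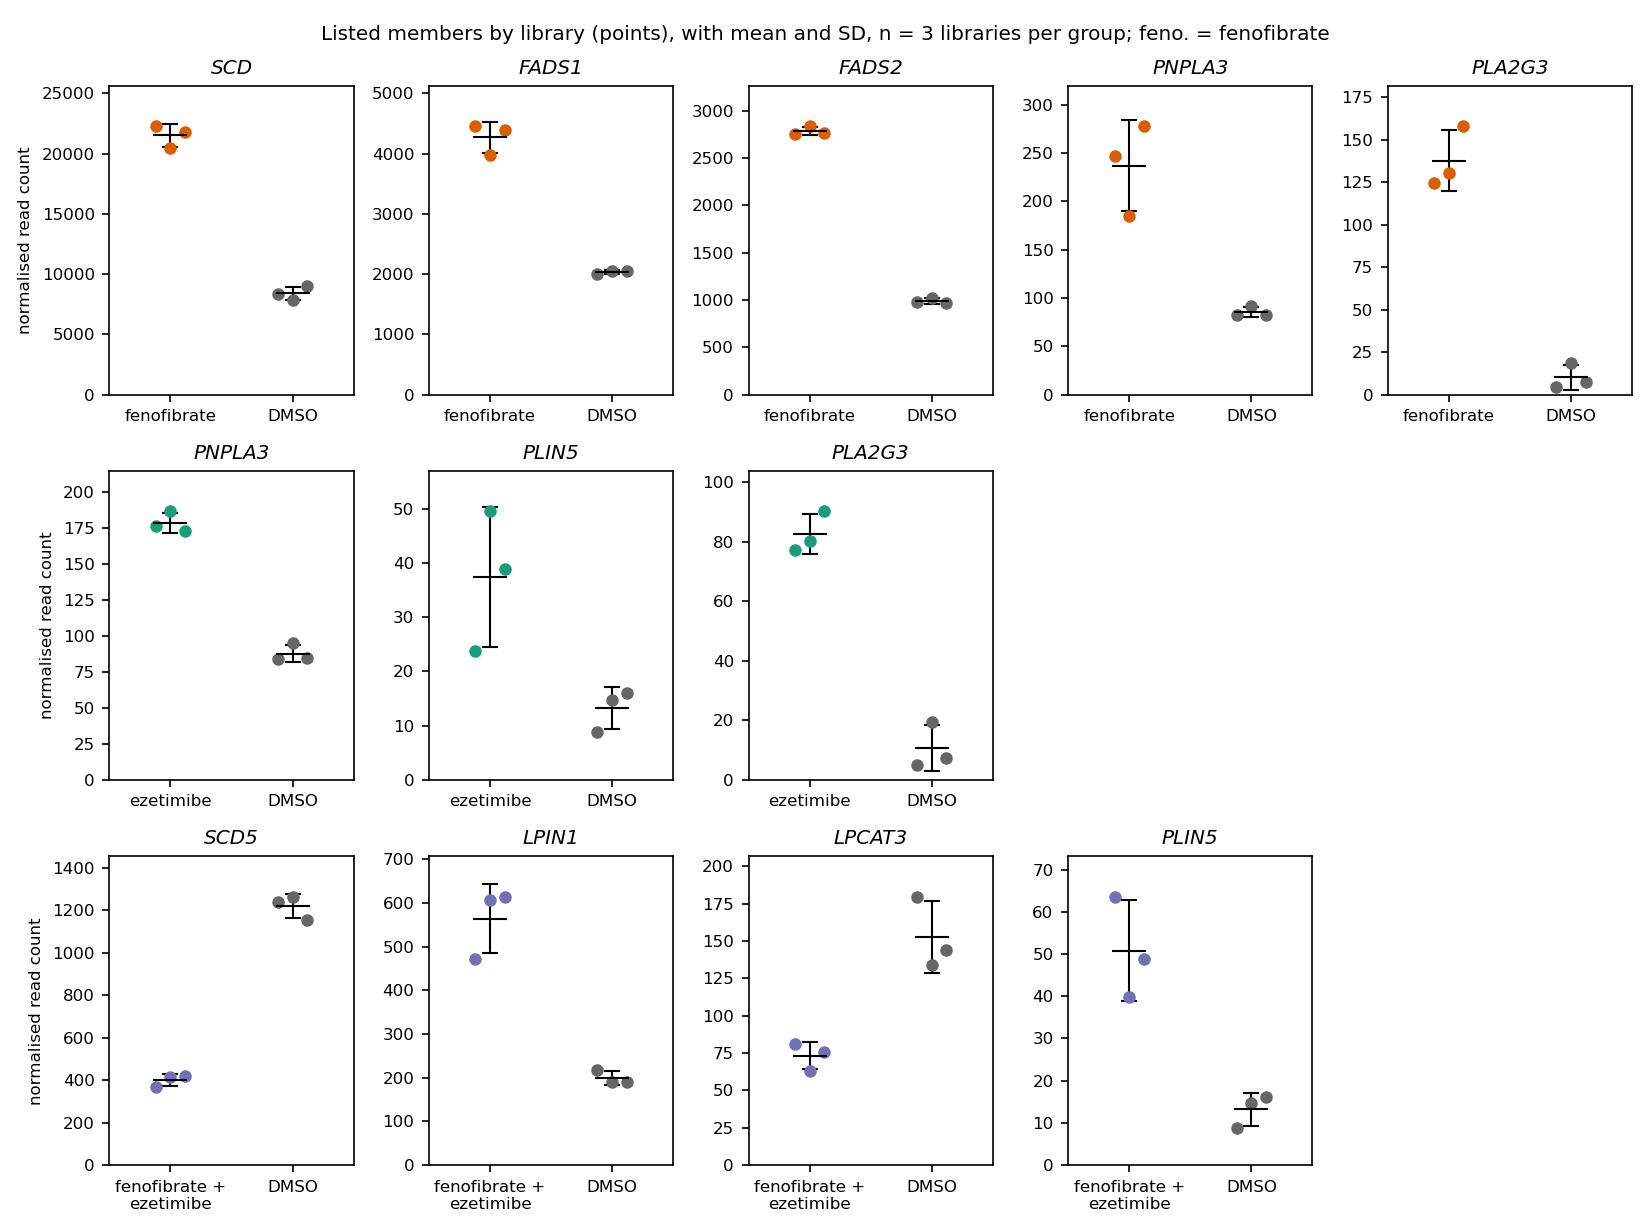
Normalised read count of each listed member in each library. Rows are the fenofibrate, ezetimibe and combination tables, points are libraries, and the lines give the mean and SD of 3 libraries, with the treated group left of DMSO. Treated and DMSO libraries do not overlap in any panel, and SCD5 and LPCAT3 are the 2 members lower in treated cells. Each panel shows a gene already called by the authors in that contrast, so the lack of overlap follows largely from the choice. The share of all listed genes without overlap was not counted.

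For the members that a table does not list, no library values are at hand, and only genes of like level can be described. In the authors' deposited table of the combination, 23 genes had a DMSO level within 1.2-fold of that of SCD, with absolute log2 fold changes from 1.02 upwards and adjusted p up to 1.45e-14. Around FADS2 the same table held 196 genes, from 1.00 upwards and with adjusted p up to 4.05e-07. Around FADS1 it held 137 genes, also from 1.00 upwards, with adjusted p up to 0.00868. At these levels, then, the authors' table reached down to changes at its own fold threshold. In the authors' deposited table of ezetimibe, 19 genes were listed around FADS2 (from 1.00 upwards) and 17 around FADS1 (from 1.02 upwards), but only 1 around SCD. Around SCD5 the authors' tables listed 12 genes with ezetimibe and 2 with fenofibrate, and around LPIN1 27 genes with ezetimibe and 5 with fenofibrate. At the low level of PLA2G3 the authors' combination table began at 1.28 and reached an adjusted p of 0.0498, so that changes above its fold threshold could go unlisted there. Around PLIN5 the authors' fenofibrate table listed only 3 genes, from 1.65 upwards. A change of PLIN5 above the fold threshold could thus go unlisted with fenofibrate too.

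Of the glycerolipid members, LPIN1 was higher and LPCAT3 lower, each in the combination table alone. LPIN1, a phosphatidic acid phosphatase that also acts as a coactivator of transcription (chromosome 2, 11677595 to 11827409, plus strand), had 472, 606 and 615 reads with the combination, against 217, 191 and 190.0 with DMSO. The combination libraries all lay well above the DMSO libraries, and the ratio of the means was 2.83 (log2 1.49 ± 0.14). LPCAT3, the acyltransferase for polyunsaturated chains (chromosome 12, 6976186 to 7018510, minus strand), had 81.1, 63.0 and 75.7 reads with the combination, against 179.7, 134 and 144 with DMSO. Its groups did not overlap, and the log2 fold change of -1.05 ± 0.20 was the closest to the listing threshold in that table among the members. Of its exon bases, 65.6% also belong to exons of EMG1, a ribosome biogenesis gene on the other strand that was not listed in any table, so the LPCAT3 value is uncertain.

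Among the lipases and droplet proteins, 3 members were listed in 2 tables each, and all were higher with treatment. Ezetimibe had 3 of the 9 members listed, PLA2G3, PNPLA3 and PLIN5, all higher, beside 2.70% of all 13596 genes tested listed as higher (the contrast that the rule used). PNPLA3, a droplet protein with lipase and acyltransferase activity (chromosome 22, 43923739 to 43964488, plus strand), had 247, 185 and 278 reads with fenofibrate, against 82.0, 91.9 and 82.4 with DMSO. In the ezetimibe table it had 176, 187 and 173 reads with ezetimibe, against 84.3, 94.9 and 84.4 with DMSO. The fenofibrate libraries were spread more widely than the ezetimibe libraries. The ratios were 2.77 with fenofibrate (log2 1.44 ± 0.17) and 2.03 with ezetimibe (log2 1.02 ± 0.14), the member just inside the listing threshold.

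PLA2G3 (chromosome 22, 31134809 to 31140607, minus strand) had 125, 131 and 158 reads with fenofibrate, against 4.77, 18.7 and 7.30 with DMSO. With ezetimibe it had 77.3, 80.5 and 90.3 reads, against 4.90, 19.3 and 7.48 with DMSO. The DMSO libraries held few reads and differed among themselves, so the size of the fold is less certain than its direction. The ratios were 13.4 with fenofibrate (log2 3.81 ± 0.45) and 7.82 with ezetimibe (log2 3.05 ± 0.39). PLA2G3 and PNPLA3 were not listed with the combination. Of the exon bases of PNPLA3, 4.58% are shared with SAMM50 on the same strand, which was not listed.

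PLIN5, which coats droplets and links them to mitochondria in muscle and liver (chromosome 19, 4522531 to 4535224, minus strand), had 63.6, 39.8 and 48.8 reads with the combination, against 8.79, 14.7 and 16.0 with DMSO. With ezetimibe it had 23.7, 49.5 and 39.0 reads, against 8.82, 14.7 and 16.0 with DMSO. All treated libraries lay above all DMSO libraries, but with wide spread at these few reads. The ratios were 3.86 with the combination (log2 1.88 ± 0.33) and 2.83 with ezetimibe (log2 1.41 ± 0.36). A further 1047 of its exon bases (21.7%) lie in a second annotated gene on the same strand, AC011498.4, which was not listed.

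Whether 2 treatments differed was tested for these 3 genes, in a contrast that the rule did not itself use. It is not free of the selection, because a gene entered only if both treatments passed the authors' thresholds against the same DMSO libraries. Estimates and p-values, here and in the comparisons between treatments below, hold only for genes filtered in this way. PNPLA3 with ezetimibe lay just inside that filter (authors' log2 fold change 1.02). The tables were put on a common scale through the DMSO libraries that they share. For genes in both the ezetimibe and fenofibrate tables, 58.3% of 60 differed between the drugs (limma, adjusted p under 0.05). PNPLA3 had 178 ± 7.19 reads with ezetimibe and 243 ± 48.2 with fenofibrate. On this scale the libraries did not overlap (190.0 was the lowest with fenofibrate and 186 the highest with ezetimibe). In the values as deposited they did overlap, with 185 the lowest for fenofibrate and 187 the highest for ezetimibe. The log2 difference on the common scale, ezetimibe minus fenofibrate, was -0.42 ± 0.15 (limma adjusted p = 0.0346, lower in 3 of 3 libraries). This call rests on single libraries, since leaving out a library gave adjusted p from 0.00195 to 0.148 and lost the call in 5 of 9 cases, each of which left out an ezetimibe library, fenofibrate replicate 1 (log2 -0.38) or fenofibrate replicate 3 (log2 -0.30).

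PLA2G3 had 82.5 ± 6.72 reads with ezetimibe and 141 ± 18.3 with fenofibrate, and the libraries did not overlap. The log2 difference was -0.76 ± 0.38 (95% interval -1.59 to 0.07, limma adjusted p = 0.104), which did not pass. The spread in that fit includes the uneven DMSO libraries. Leaving out single libraries gave limma adjusted p from 0.00773 to 0.256, and only 2 of 9 cases were called. These were without DMSO replicate 2 (0.00773), which held the most PLA2G3 reads, and without DMSO replicate 1 (0.0491). With the 6 treated libraries alone, an alternative chosen after seeing the data, the limma adjusted p was 0.00248.

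PLIN5 had 50.8 ± 12.0 reads with the combination and 37.3 ± 12.9 with ezetimibe, and the libraries overlapped. The log2 difference was 0.47 ± 0.33 (95% interval -0.25 to 1.19, limma adjusted p = 0.238). A difference between these treatments did not pass, and the interval holds both no change and more than a 2-fold rise. Among genes in both tables, 63.2% of 359 differed between the combination and ezetimibe. No member was in both the combination and fenofibrate tables, so the combination could not be compared with fenofibrate, or with the sum of the single drugs, for any member.

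**Figure D2:**
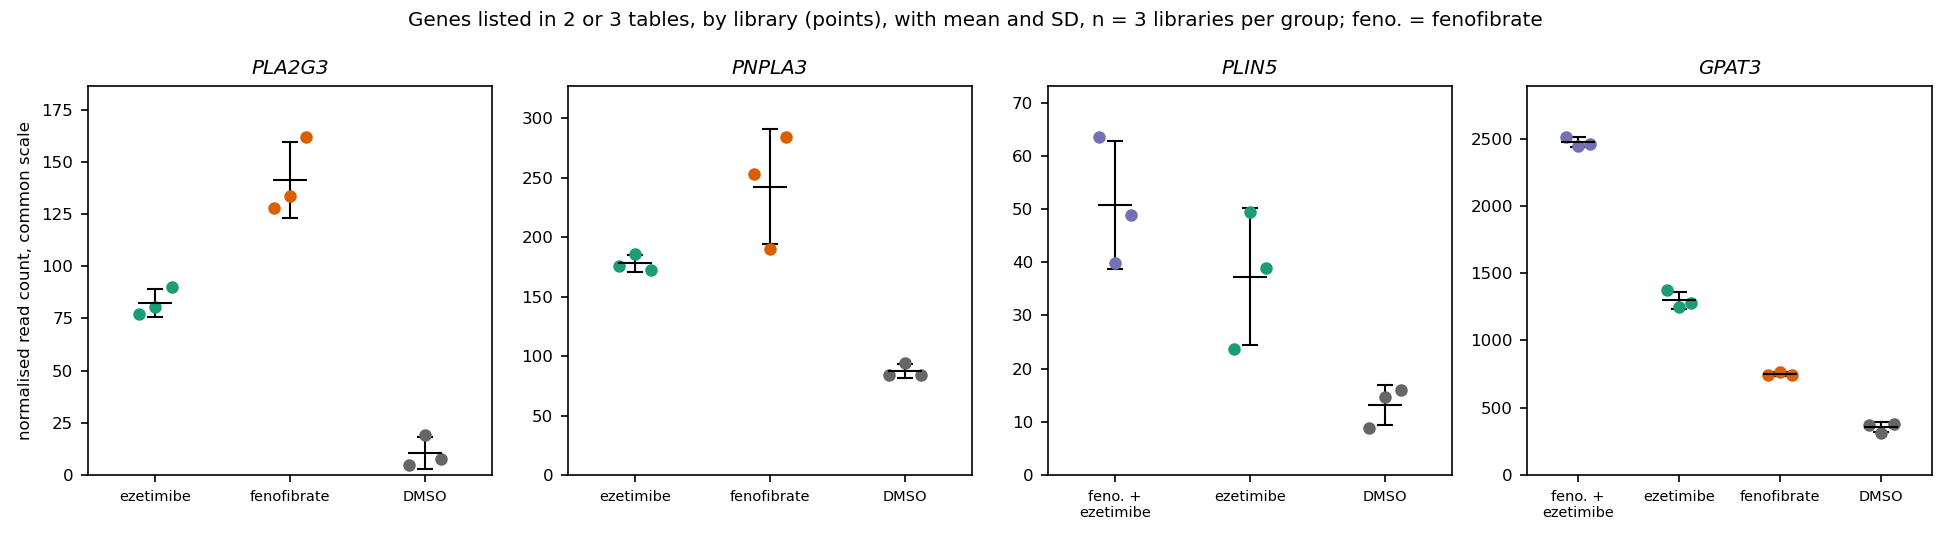
Normalised read count on the common scale for PLA2G3, PNPLA3 and PLIN5 and for GPAT3, in the libraries of each group that a table lists. Points are libraries and lines the mean and SD of 3 libraries. On this scale the ezetimibe and fenofibrate libraries do not overlap for PLA2G3 (adjusted p = 0.104 by limma, not passed) and PNPLA3 (adjusted p = 0.0346 by limma). In the values as deposited those of PNPLA3 overlap. The 2 treated groups of PLIN5 overlap, and GPAT3 is highest with the combination and lowest with DMSO.

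The genes whose pattern over the libraries was most like that of a member were found by the root mean square difference of log2 values, each gene centred on its own mean. Over the 9 fenofibrate, ezetimibe and DMSO libraries and among 56 genes, SREBF2 (0.145) and STARD4 (0.180) were among the 3 nearest to PNPLA3. SREBF2 encodes an SREBP, a sterol-regulated factor, and STARD4 encodes a sterol carrier. A link of PNPLA3 to sterols was not tested. Nearest to PLA2G3 were NUPR1 (0.625), EPAS1 (0.882) and INSIG1 (0.944), all much less alike. For PLIN5, over the 9 combination, ezetimibe and DMSO libraries and among 249 genes, KCNK15 (0.324), TPRA1 (0.330) and CEBPB (0.338) were nearest. The genes compared with a member were only those listed in both tables that list that member. Each was thus already called against DMSO in these same libraries, so likeness follows in part from that choice. Whether these genes share a cause with the members was not tested.

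Levels in DMSO cells spanned a wide range. Per kb of gene length and on the common scale, SCD was highest at 1606 ± 108 normalised reads, followed by SCD5 at 284 ± 13.1, FADS1 at 204 ± 3.33 and FADS2 at 91.9 ± 2.75 (SD, n = 3 each). Within each library SCD was 5.67 ± 0.650 times as high as SCD5. The next were LPCAT3 at 32.3 ± 5.08, PNPLA3 at 27.1 ± 1.88 and LPIN1 at 16.8 ± 1.28. PLA2G3 at 3.91 ± 2.85 and PLIN5 at 2.73 ± 0.798 were lowest. The libraries of neighbours in this order overlapped for LPCAT3 with PNPLA3 and for PLA2G3 with PLIN5, and did not for the other neighbours.

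**Figure D3:**
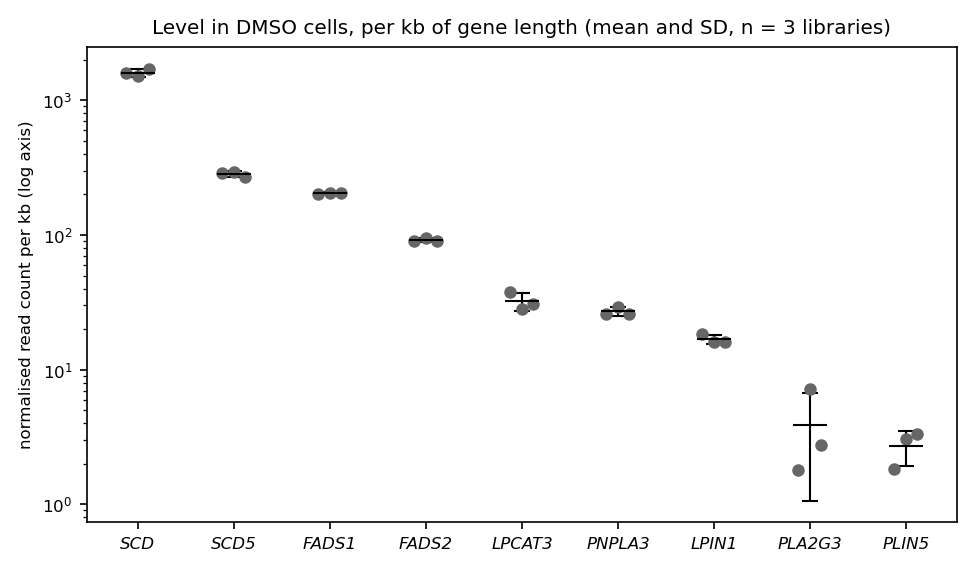
Level of the 9 members in the 3 DMSO libraries, as normalised read count per kb of gene length on a log axis. Points are libraries and lines the mean and SD. SCD stands 5.65-fold above the next gene, SCD5, and PLA2G3 and PLIN5 lie lowest and overlap. The order depends partly on the length, which counts all annotated exons.

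Other genes of these pathways were counted from 10 lists with 134 genes, of which 125 are not members. With fenofibrate 1 of the 125 was listed as higher and 0 as lower, with ezetimibe 5 were higher and 0 lower, and with the combination 12 were higher and 10 lower. These are 0.8%, 4.0% and 9.6% of the list on the higher side, beside 0.761%, 2.70% and 10.3% of all genes tested. On the lower side the combination had 8.0%, beside 7.27% of all genes. The lists were written with earlier results of these data known.

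GPAT3, an acyltransferase that starts glycerolipid synthesis, was the only one of the 125 in all 3 tables. On the common scale it had 2474.5 ± 35.5 reads with the combination, 1299 ± 64.7 with ezetimibe, 749 ± 13.5 with fenofibrate and 354 ± 38.1 with DMSO. The combination exceeded fenofibrate (log2 1.72 ± 0.09, limma adjusted p = 5.44e-08, where 78.5% of 65 genes differed) and ezetimibe (log2 0.93 ± 0.10, limma adjusted p = 4.19e-06). Set against both single drugs added together on the log2 scale, the combination differed by -0.15 ± 0.11 (95% interval -0.40 to 0.09, limma adjusted p = 0.235). Of the 49 genes in all 3 tables, 35 differed from that sum, 27 lower and 8 higher.

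In the desaturase list, FADS3, a relative of FADS1 and FADS2 that acts on sphingoid bases, was not listed with fenofibrate. It had 2340 ± 284 reads with the combination against 822 ± 56.3 with DMSO, and 2394 ± 100.02 with ezetimibe against 825 ± 57.3 with DMSO. The combination and ezetimibe did not differ beyond their spread (log2 -0.04 ± 0.10, 95% interval -0.26 to 0.19, limma adjusted p = 0.780). CYB5A, the cytochrome that passes electrons to desaturases, was lower with the combination (585 ± 38.9 against 1225 ± 27.3 with DMSO).

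In the list of phospholipid remodelling, 4 of 8 genes were listed as lower with the combination and 0 as higher, beside 7.27% of all genes tested listed as lower. The 4 include LPCAT3, which was chosen for being listed and whose value is uncertain through the overlap with EMG1. These were LPCAT3 and the acyltransferases MBOAT2 (152 ± 17.0 against 538 ± 80.5 with DMSO), LPCAT4 (249 ± 8.38 against 590 ± 66.7) and LPGAT1 (1139 ± 242 against 2314 ± 250.4). In the elongation list 3 of 13 genes were lower and 0 higher, ELOVL2, which lengthens polyunsaturated chains (46.4 ± 5.87 against 186 ± 15.3), HACD4 and HACD1. None of either list was listed with a single drug. Of 11 acyl-CoA synthetases, which activate fatty acids, 2 were higher with the combination (SLC27A1 and ACSL5) and 0 were listed with a single drug. Among all genes tested, 10.3% were listed as higher with the combination, 2.70% with ezetimibe and 0.761% with fenofibrate.

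Of 23 droplet and lipolysis genes, 4 were listed as higher with the combination, 4 with ezetimibe and 1 with fenofibrate, 0 were listed as lower, and the others have no value. These counts include PLIN5 and PNPLA3, which were chosen for being listed, and stand beside 10.3%, 2.70% and 0.761% of all genes tested. Beside PLIN5 these included the droplet coat PLIN4 (188 ± 25.5 with the combination against 69.8 ± 17.5 with DMSO), the monoglyceride lipase MGLL (57.1 ± 17.8 against 5.94 ± 1.19) and the lipase inhibitor G0S2 (35.5 ± 11.8 against 5.50 ± 1.63). In MGLL the combination exceeded ezetimibe (log2 1.13 ± 0.32, limma adjusted p = 0.00699), but PLIN4 did not pass (log2 0.11 ± 0.20, limma adjusted p = 0.655).

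Of the other phospholipases A2, PLA2G6 was higher with the combination (297 ± 19.1 against 104 ± 8.18 with DMSO) and with ezetimibe (209 ± 5.34 against 104 ± 8.10 with DMSO). PLA2G4C was higher with the combination from almost no reads (40.3 ± 13.5 against 0.612 ± 1.06 with DMSO), and PLA2G15, of lysosomes, was lower (285 ± 44.2 against 584 ± 43.4). In phospholipid synthesis the combination had 2 of 19 genes higher and 1 lower (10.5% and 5.26%). These shares are near the 10.3% and 7.27% of all genes tested. The lower gene was CDS1, which diverts phosphatidic acid from diacylglycerol (386 ± 57.8 against 1260 ± 89.8 with DMSO). PISD, which makes phosphatidylethanolamine in mitochondria, was higher (1916 ± 258 against 769 ± 31.5).

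Of the 10 genes of de novo fatty acid synthesis, 0 were listed with either single drug. With the combination the citrate carrier SLC25A1 was lower (858 ± 112 against 2221 ± 236 with DMSO) and MID1IP1, an activator of acetyl-CoA carboxylase, was higher (854 ± 64.0 against 397 ± 53.6). Of 19 regulators of lipid genes, SREBF2 and INSIG1 were higher with each single drug and not listed with the combination, the distribution over tables that PNPLA3 and PLA2G3 also had. INSIG1 was lower with ezetimibe than with fenofibrate (log2 -0.82 ± 0.08, limma adjusted p = 8.04e-06). MYLIP, a ubiquitin ligase and LXR target, was lower with the combination (52.9 ± 2.60 against 164 ± 14.8 with DMSO). SREBF1, PPARA and LXR genes were not listed, and of 16 PPARα targets in fatty acid oxidation 0 were listed in any table. Of all genes tested, 0.761% were listed as higher with fenofibrate, 2.70% with ezetimibe and 10.3% with the combination (7.27% as lower). Nothing is read from counts in lists this short.

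**Figure D4:**
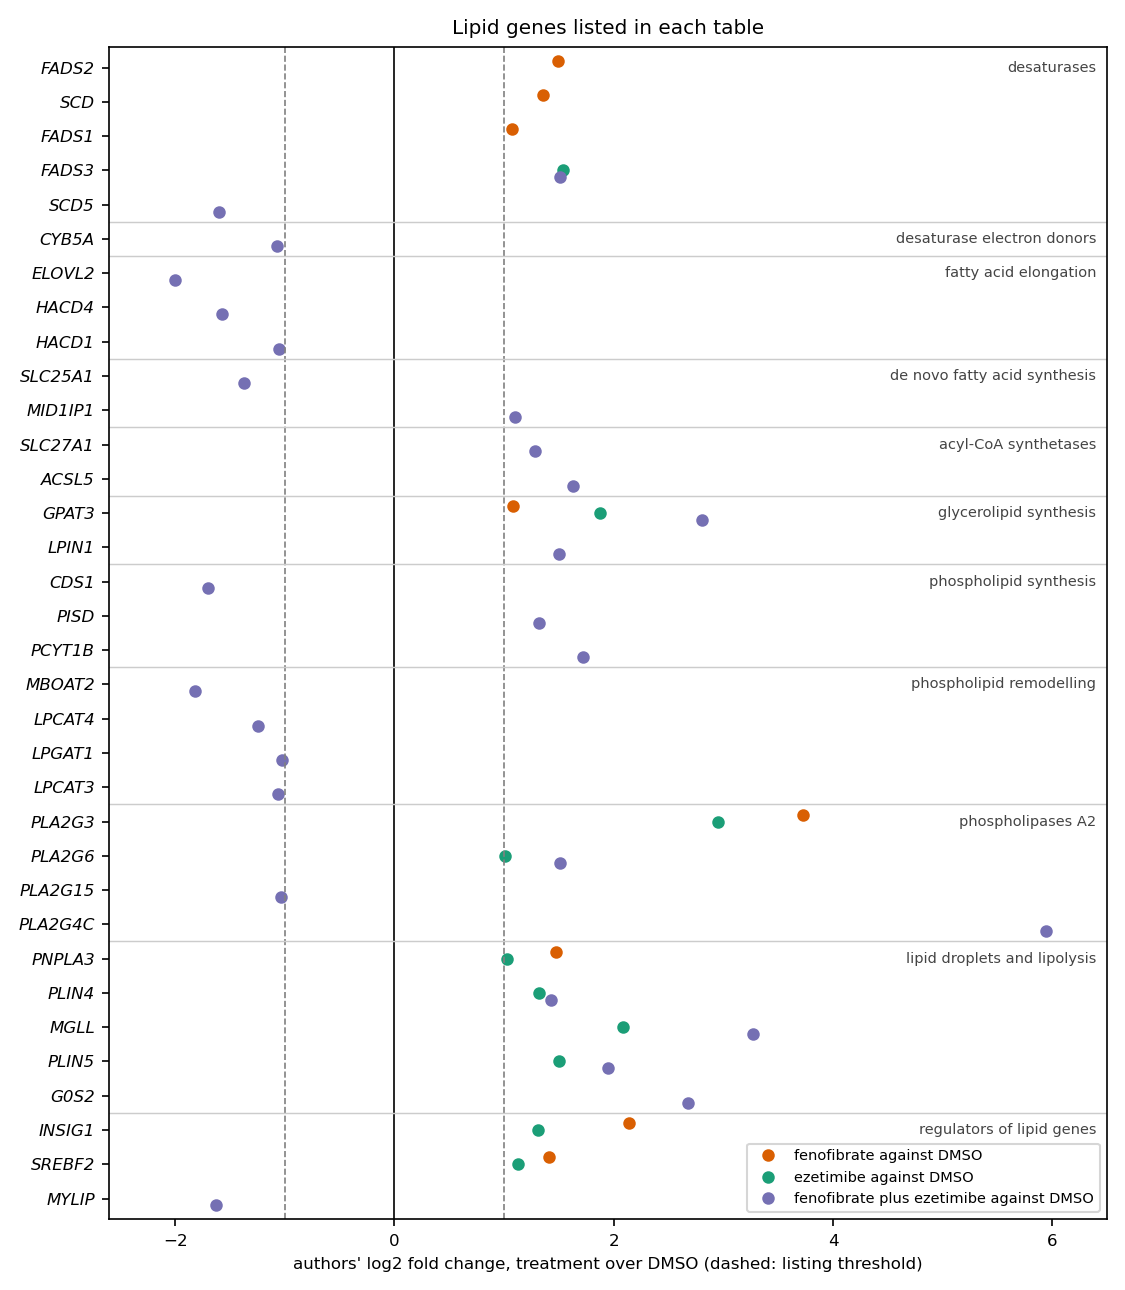
The authors' log2 fold change, treatment over DMSO, for each listed gene of the lipid lists, with a point per table. Dashed lines mark the listing threshold of 1, and a missing point means not listed. Fenofibrate and ezetimibe points are all on the higher side, and the combination has points on both sides, with the 4 remodelling genes all lower.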

How the data were processed

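Cal51 libraries were analysed from 3 tables that set 1 treatment against DMSO, 3 libraries per group, grouped by their titles. Per the submitters' processing notes the build was hg38 and the tools included featureCounts 1.5.0-p3, HISAT2 2.0.5 and fastp. How the authors tested for differences is not stated there. The deposited signal of each library is, from the values, a read count divided by 1 factor per library, set by the authors separately in each table (100% of values whole within 0.001 after the factors were found). The log2 fold changes and p-values in the tables are the authors' own, as deposited, and only genes past their thresholds are held. The numbers of genes tested were inferred from the ratio of adjusted and raw p-values, where 58.8%, 89.7% and 93.2% of the p-values used gave a whole rank within 0.02 for fenofibrate, ezetimibe and the combination, so that for fenofibrate is the least certain. Coordinates and exon lengths of all 9 members equalled those of GENCODE release 29.

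Fits used limma 3.58.1 with trend (R 4.3.3) with a pseudocount of 1 added before taking log2, which draws changes at low levels towards 0. For comparisons between treatments, each table was multiplied by the mean ratio of its shared DMSO values to those of the combination table (1.03 for fenofibrate and 0.997 for ezetimibe, with equal DMSO reads in 195 of 195 and 1077 of 1077 pairs of gene and library). Tests are 2-sided with Benjamini-Hochberg adjustment over all genes found in both tables and a threshold of 0.05. An exact permutation test was not used, because groups of 3 cannot reach 0.05 in it. edgeR 4.0.16 was run on whole reads for the combination table only, as an alternative. Scripts were tested on simulated data.

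The members, gene lists and motifs were chosen with earlier results of these data known. Named genes are the members, up to 4 listed genes of each list and table with the largest change, the 3 most alike genes (protein-coding, mean of at least 50) of members in 2 tables, and named regulators where listed. A gene among the most alike is not reported here. Of 197 list entries, 196 matched a gene symbol.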

Additional observations from a re-analysis of the deposited data

How the results depend on the processing

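The 12 changes of members against DMSO kept their direction under all 124 alternatives (other pseudocounts, a filter on low values, each library left out, a replicate block and, for the combination, edgeR). In 3 cases, all with a pseudocount of 10, the log2 value moved by more than the spread between replicates: PLA2G3 with fenofibrate (2.92), PLA2G3 with ezetimibe (2.23) and PLIN5 with the combination (1.39). Beyond an absolute log2 fold change of 1.5, the listed members numbered 3 in place of 4 with the combination and 2 in place of 3 with ezetimibe. With fenofibrate there was 1 (PLA2G3) in place of 5, so that fenofibrate had the fewest and not the most. That order rests on narrow margins in the authors' values. LPIN1 with the combination (1.503) and PLIN5 with ezetimibe (1.505) just passed, and FADS2 (1.495) and PNPLA3 (1.471) with fenofibrate just missed. edgeR was not run on the other tables.

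Between ezetimibe and fenofibrate, PNPLA3 was no longer called with the replicate block (log2 -0.42, limma adjusted p = 0.0599). Its log2 difference ran from -0.59 to -0.30 when single libraries were left out. With the values as deposited, not rescaled, PNPLA3 was called only narrowly (log2 -0.38, limma adjusted p = 0.0489). PLA2G3 was called with a pseudocount of 10 (log2 -0.71, adjusted p = 0.0199) and with the treated libraries alone (log2 -0.76). It was not called with a pseudocount of 0.5 (limma adjusted p = 0.119) or the replicate block (limma adjusted p = 0.107). With single libraries left out it ran from -0.83 to -0.66 and was called in 2 of 9 cases. PLIN5 between the combination and ezetimibe was not called under any alternative. The replicate numbers did not pair the libraries: deviations of same-numbered libraries correlated from -0.327 to 0.157, and 3 of 9 treated libraries correlated best with their own number. The block changed no other call of a member. PLIN5 and PLA2G3 had the fewest reads in DMSO libraries among the members, so their fold changes are the least precise.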
